A study of Mus musculus with 18 samples.

Results

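In mouse embryonic stem cells (ESCs), the low polysome fraction of a sucrose gradient was compared with the monosome fraction of the same gradient. The comparison took 6 of the 18 libraries of the series, 3 monosome and 3 low polysome libraries from 3 gradients of WT cells. The cells were V6.5 ESCs grown in serum with LIF and 2i, the MEK inhibitor PD0325901 and the GSK3 inhibitor CHIR99021. They were given cycloheximide, which holds ribosomes on their mRNAs, at 100 ug/ml for 2 minutes. Lysates were spun through 10% to 50% sucrose at 35000 rpm for 3 hours, and each gradient was divided into monosomes (1 ribosome), low polysomes (2 to 4 ribosomes) and high polysomes (4 or more ribosomes). Further libraries are set beside this comparison: the 3 high polysome libraries of the same WT gradients, and 3 monosome and 3 low polysome libraries from cells lacking the RNA helicase DDX6 (Ddx6 KO). The KO gradients come from 2 clones, with gradient 1 from clone 1 and gradients 2 and 3 from clone 2. Genes entered the comparison when they had at least 3 CPM (counts scaled to a fixed library total) in at least 3 of the 18 libraries, which kept 12705 of 51467 genes.

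An mRNA sediments according to the number of ribosomes on it, so the fraction in which it is found reads out how many ribosomes it carries. The number of ribosomes depends on how often translation starts, on how fast ribosomes move, and on the length of the reading frame, since a short frame has room for few ribosomes. An mRNA that is poorly initiated sits with 1 ribosome or none, and mRNAs of ribosomal proteins and elongation factors are known to move between light and heavy fractions as a group. Non-coding RNA can also enter these fractions, by carrying ribosomes on short frames or by sedimenting in other particles of the same weight. The monosome fraction therefore holds both mRNAs with a single translating ribosome and RNA that is hardly translated.

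Libraries were read from the 3′ end (QuantSeq), so that a gene's count does not grow with its length, and levels are given as CPM scaled by TMM, a factor that sets the typical gene to no difference between libraries. Every difference below is thus relative to the typical gene and does not measure the total RNA of a fraction. Total gene counts ran from 2543617 to 4894677 in the monosome libraries and from 7043953 to 8565470 in the low polysome libraries. All 9 ESC markers were detected, with summed levels of 2839 to 2869.9 CPM in monosomes and 2619 to 3815 CPM in low polysomes. Markers of fibroblasts, the usual feeder cells, summed to at most 5.50 CPM in monosomes and 10.8 CPM in low polysomes, and 4 of their 7 genes, Col1a2, Col3a1, Dcn and Postn, had no count in any of the 6 libraries. Markers of differentiated lineages summed to at most 42.2 CPM. The sources used here do not say whether the 3 gradients came from separate cultures, so the spread between them may be technical. P-values rest on a spread estimated over all 18 libraries, with the KO gradients and high polysomes included, and not over the WT gradients alone.

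The low polysome library of gradient 3 stood apart in a limited set of genes. Among 9029 genes with a mean of at least 10 CPM, 56 had a low polysome over monosome ratio in gradient 3 that was more than 2 log2 units below the mean of the other gradients, where those agreed within 1 unit. A single gene had such a gap in the other direction, and gradients 1 and 2 had 0 genes of either kind. In these 56 genes the gradient 3 low polysome library differed from the mean of the other WT low polysome libraries by a median of -2.35 on the log2 scale. The WT monosome libraries differed in the same genes by medians of -0.18 to 0.14 and the WT high polysome libraries by -0.11 to 0.10. The low polysome library of KO gradient 2 was low in the same genes, by a median of -1.59. Usmg5, a small subunit of mitochondrial ATP synthase that was singled out after its values were seen, shows the pattern: it was at 979, 898 and 885 CPM in monosomes and at 579, 636 and 31.1 CPM in low polysomes. Of the 56 genes, 14 were called lower and 1 higher with all gradients, against 10 and 5 without gradient 3. What set this library apart was not tested, and counts of calls in the gene groups below that move by more than 1.5 times without gradient 3 are given both ways.

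Of the 12705 genes, 2785 (21.9%) were higher and 3009 (23.7%) lower in low polysomes than in monosomes, at an adjusted p under 0.05 in limma's moderated test with the gradient as a block. These shares are the background against which each gene group below is to be read. Where low polysome and monosome values are said not to overlap, the share of all genes with this trait was not counted. Many of the genes named were chosen for large differences, which favours values without overlap. Values of the uncalled gene Rps25 did not overlap either. Genes with an adjusted p under 0.05 and a difference of more than 1 log2 unit numbered 767 (6.04%) on the higher side and 1385 (10.9%) on the lower side. Leaving out gradient 3 left 2016 higher and 2314 lower. The median fitted log2 difference was -0.010 and the median SE 0.20. The scaling sets the typical gene to no difference, which favours a median near 0 and balanced counts. The lower side held more large differences.

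**Figure D1:**
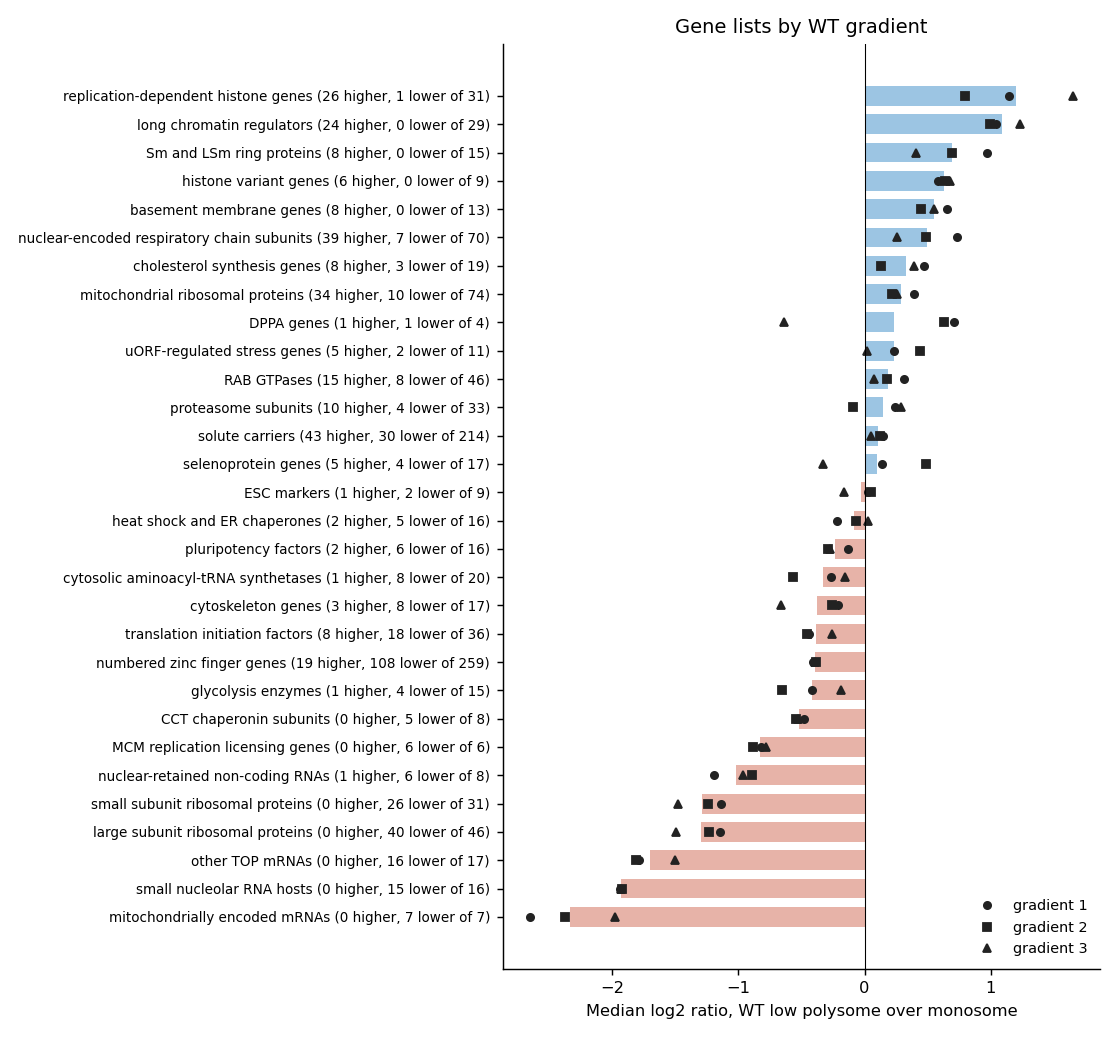
Median log2 ratio of CPM, WT low polysome over monosome (horizontal axis, linear log2), for each of 30 gene lists (vertical axis, with the numbers called higher and lower). Black marks are the 3 gradients and bars their mean. Mitochondrially encoded mRNAs, small nucleolar RNA hosts and mRNAs of the translation machinery lie at the low end, replication-dependent histone genes and long chromatin regulators at the high end, and the DPPA and selenoprotein lists have gradients on both sides of 0.

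Coding length separated the genes in a non-monotonic way. Among 11773 protein-coding genes with an annotated coding sequence, more genes were higher than lower up to 750 nt and above 3000 nt, and more were lower than higher from 1000 to 3000 nt. Group medians below are of log2 ratios within a gradient, with 0.5 CPM added to each level. The 251 genes with at most 300 nt (100 codons) had median log2 ratios of 0.35, 0.26 and -0.015 in gradients 1 to 3, a mean of 0.20 ± 0.19 (SD, n = 3), and 85 were higher and 36 lower, or 22 lower without gradient 3. The 805 genes of 300 to 500 nt had the largest ratio among short frames, 0.38 ± 0.14, with 343 higher (42.6%) and 97 lower. Genes of 500 to 750 nt followed at 0.29 ± 0.085, with 517 of 1434 higher and 168 lower. The ratio of genes of 750 to 1000 nt was 0.054 ± 0.083, which is within its own spread, and their 312 higher and 285 lower genes were close in number.

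Frames of 1500 to 2000 nt had the lowest mean over all 3 gradients, though frames of 2000 to 3000 nt were lower in gradient 1. The medians of the former were -0.20, -0.20 and -0.19 in the 3 gradients, a spread far smaller than their distance from 0, and 196 of 1804 genes were higher (10.9%) and 550 lower (30.5%). With no filter on low counts, their mean was -0.00021. The spread varied with scaling and depth. Its SD was 0.0025 as scaled here, 0.047 with library size alone and 0.046 with every library thinned to equal depth. The neighbouring bins had means of -0.09 ± 0.04 for 1000 to 1500 nt and -0.17 ± 0.043 for 2000 to 3000 nt, with 421 of 2731 and 211 of 1807 genes higher and 727 and 516 lower. Above 3000 nt the direction turned. Genes of 3000 to 5000 nt stood at 0.12 ± 0.095, with 277 of 1085 higher and 186 lower. The 487 genes with more than 5000 nt stood at 0.87 ± 0.16, with 332 higher (68.2%) and 9 lower (1.85%). The summed level of these longest genes rose from 14670.5 ± 485 CPM in monosomes to 27434 ± 3734 CPM in low polysomes. Without gradient 3 the numbers of higher genes fell to 206 for 750 to 1000 nt, 265 for 1000 to 1500 nt, 114 for 1500 to 2000 nt, 111 for 2000 to 3000 nt and 167 for 3000 to 5000 nt, while the bin means kept their signs.

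**Figure D2:**
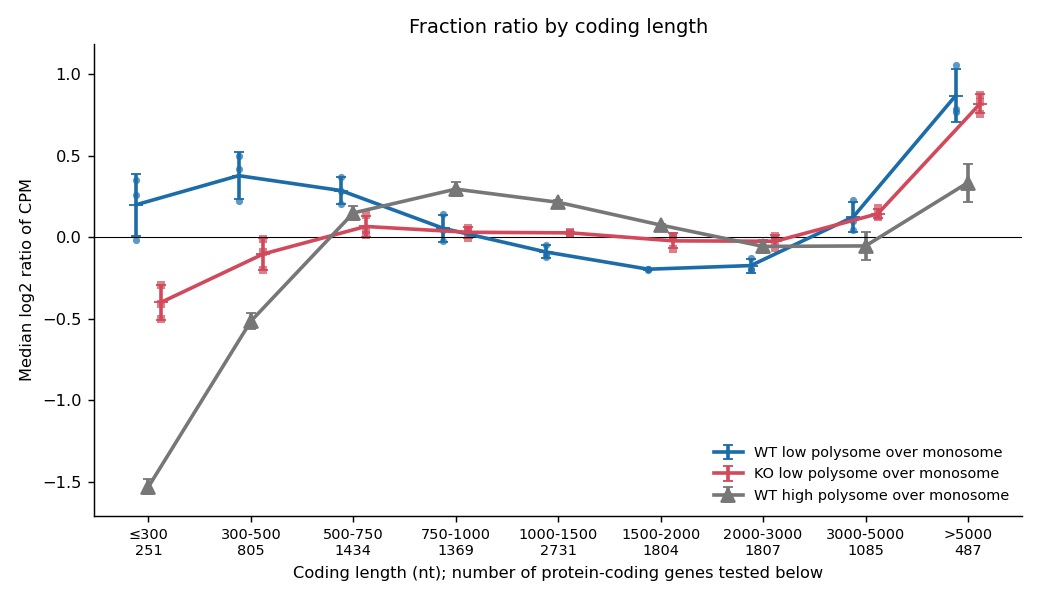
Median log2 ratio of CPM over monosome (vertical axis, linear log2) for 9 bins of coding length in nt (horizontal axis, with the number of genes below). Lines join means over 3 gradients, error bars are SDs, and small points are single gradients. The WT low polysome line is above 0 up to 750 nt, below 0 from 1000 to 3000 nt and highest above 5000 nt, whereas the WT high polysome line is lowest for the shortest frames and the KO low polysome line stays near 0 between 500 and 3000 nt.

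A single correlation hid this shape. Across all 11773 genes, the rank correlation (Spearman's rho) of the ratio with coding length was -0.15, -0.11 and 0.031 in gradients 1 to 3, which does not keep its sign. Across the 6590 genes of up to 1500 nt it was -0.27, -0.29 and -0.14, and across the 5183 longer genes 0.25, 0.30 and 0.35. High polysome over monosome ratios, which share the monosome libraries, had a mean rho of 0.18 up to 1500 nt and 0.015 above, and KO low polysomes 0.075 and 0.23. For untranslated regions, mean rho was 0.027 for the length of the 5′ UTR, 0.08 for that of the 3′ UTR and 0.035 for the number of upstream ATG triplets, over all protein-coding genes. Above 1500 nt, the 3′ UTR reached 0.18 and upstream ATGs 0.12. These are descriptions across genes, which are not independent replicates and share libraries.

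**Figure D3:**
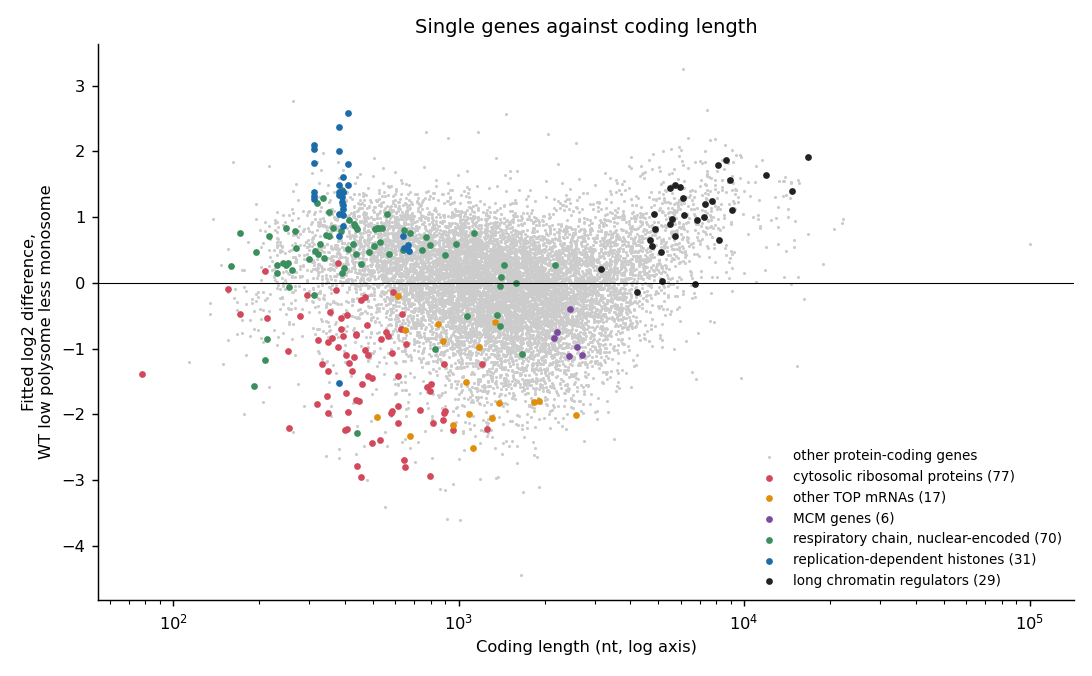
Fitted log2 difference, WT low polysome less monosome (vertical axis), against coding length in nt (horizontal axis, log scale), with one point per protein-coding gene and 6 gene lists in colour. Ribosomal protein and other TOP genes lie mostly below 0, replication-dependent histones of about the same length above 0, and long chromatin regulators above 0 at the right.

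Genes with frames of 78 to 273 nt differed in direction. The coding sequences of the short-frame genes described next are printed so that their lengths can be seen against their ratios, with the start and stop codons in capitals (Gencode M21, GRCm38, coordinates of the whole gene, all in protein-coding genes). Swi5 (chr2:32278816-32288075, minus strand), Dbi (chr1:120113280-120121078, minus strand) and Timm10 (chr2:84826997-84830213, plus strand) were raised in low polysomes and were chosen after their values were seen. Rpl41 (chr10:128548114-128549305, minus strand) and Cox8a (chr19:7215153-7217616, minus strand) were lowered, and Rps28 (chr17:33819027-33824562, minus strand) was not called.
Rpl41: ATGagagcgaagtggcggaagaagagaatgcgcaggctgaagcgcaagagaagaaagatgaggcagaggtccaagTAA
Cox8a: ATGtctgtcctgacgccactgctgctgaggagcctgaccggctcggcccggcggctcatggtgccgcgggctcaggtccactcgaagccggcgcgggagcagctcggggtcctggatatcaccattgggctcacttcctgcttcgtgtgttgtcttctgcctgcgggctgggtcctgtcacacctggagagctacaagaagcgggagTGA
Rps28: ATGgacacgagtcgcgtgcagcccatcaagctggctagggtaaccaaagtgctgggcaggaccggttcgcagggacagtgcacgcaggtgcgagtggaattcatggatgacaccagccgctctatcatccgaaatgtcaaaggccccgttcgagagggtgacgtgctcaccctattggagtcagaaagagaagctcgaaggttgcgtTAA
Timm10: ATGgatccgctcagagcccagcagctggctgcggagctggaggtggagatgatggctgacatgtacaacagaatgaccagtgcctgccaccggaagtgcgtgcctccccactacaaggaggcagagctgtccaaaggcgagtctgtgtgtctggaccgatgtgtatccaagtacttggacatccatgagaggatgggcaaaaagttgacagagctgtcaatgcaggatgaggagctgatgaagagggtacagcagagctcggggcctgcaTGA
Dbi: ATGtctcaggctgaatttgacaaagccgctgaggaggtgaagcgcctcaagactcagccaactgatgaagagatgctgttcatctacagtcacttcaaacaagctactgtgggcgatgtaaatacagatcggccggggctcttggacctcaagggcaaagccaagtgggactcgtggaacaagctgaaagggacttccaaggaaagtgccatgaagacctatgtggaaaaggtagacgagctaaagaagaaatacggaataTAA
Swi5: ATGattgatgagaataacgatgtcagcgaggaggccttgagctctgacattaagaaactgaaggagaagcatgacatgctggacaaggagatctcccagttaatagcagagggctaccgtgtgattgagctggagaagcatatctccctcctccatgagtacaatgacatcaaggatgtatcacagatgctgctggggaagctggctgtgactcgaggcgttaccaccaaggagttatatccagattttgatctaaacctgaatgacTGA

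Swi5, which works in DNA repair by homologous recombination and has a frame of 270 nt, was at 696, 799 and 629 CPM in the monosomes of gradients 1 to 3 and at 2123, 1905 and 1967 CPM in the low polysomes. All low polysome values lay above all monosome values, a 2.83-fold difference (SE of 0.19 on the log2 scale, adjusted p = 1.1e-05). In high polysomes it returned to 759.7, 447 and 632 CPM. Dbi, the acyl-CoA-binding protein, with 264 nt, went from 651, 713 and 828 to 2064, 1771 and 1905 CPM, a log2 difference (± SE) of 1.39 ± 0.14 (adjusted p = 9.8e-07) without overlap. Timm10, a chaperone of the mitochondrial intermembrane space with 273 nt, went from 45, 46.5 and 42.5 to 111, 109 and 103 CPM, a difference of 1.26 ± 0.14 (adjusted p = 3.3e-06), again without overlap.

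Rpl41, the shortest frame of these at 78 nt, coding for a peptide of the large ribosomal subunit, moved the other way, from 1971, 2154 and 2233 CPM in monosomes to 837, 821 and 777 CPM in low polysomes. The groups did not overlap and the log2 difference was -1.38 ± 0.15 (adjusted p = 2.1e-06). High polysomes held less still, 95.6, 102 and 136 CPM. Cox8a, a subunit of cytochrome c oxidase with 210 nt, fell from 2777, 2740.3 and 2349 to 1321, 1269.9 and 934 CPM, a difference of -1.17 ± 0.12 (adjusted p = 1.6e-06). Rps28 has a frame of the same length, 210 nt, and stood at 561, 543 and 586 CPM in monosomes and 738, 566 and 620.0 CPM in low polysomes. Its groups overlapped and its difference of 0.18 ± 0.24 (adjusted p = 0.58) did not pass the test.

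**Figure D4:**
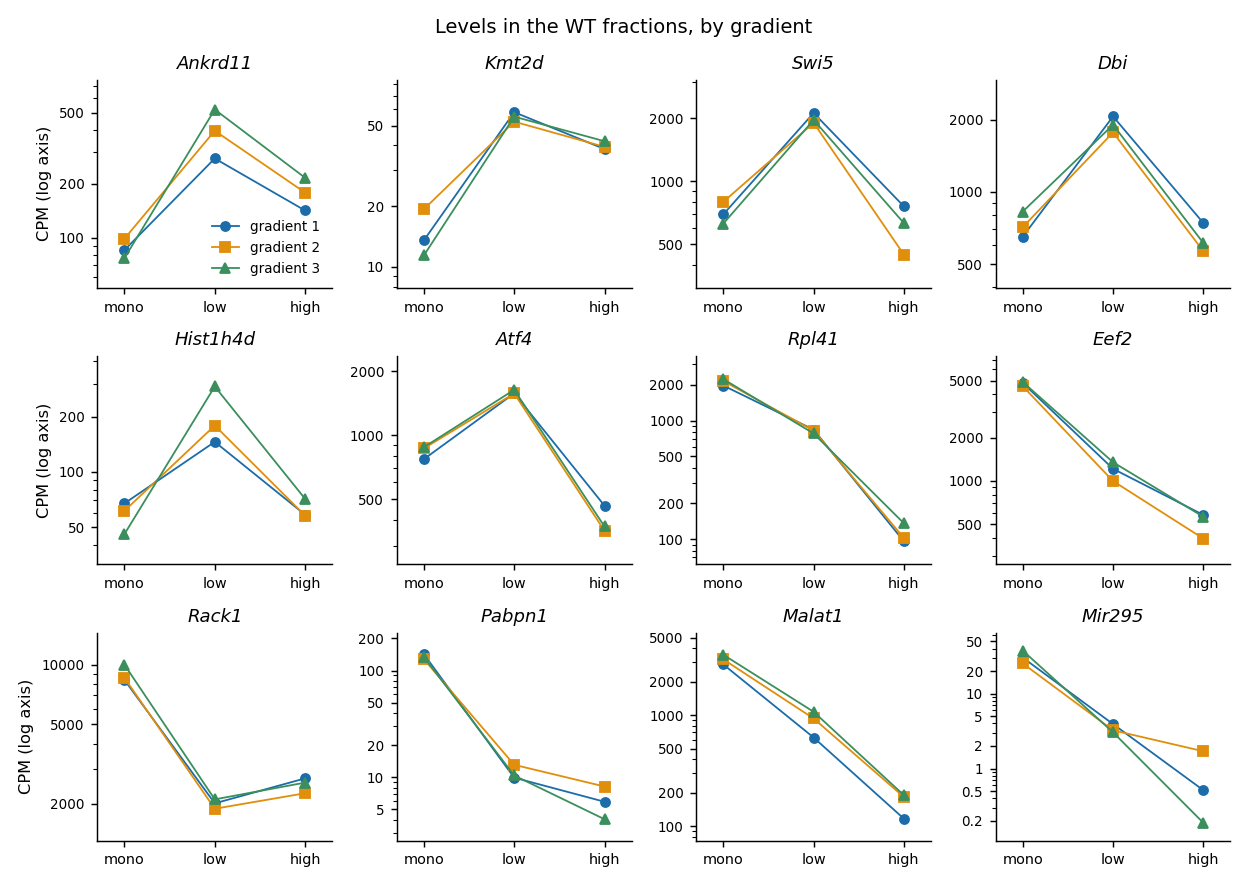
CPM (vertical axis, log scale) of 12 genes in the libraries of the 3 WT gradients, by fraction (horizontal axis, from monosome to high polysome). Each line joins the libraries of 1 gradient. Ankrd11, Kmt2d, Swi5, Dbi, Hist1h4d and Atf4 are highest in low polysomes in each gradient, and Rpl41, Eef2, Rack1, Pabpn1, Malat1 and Mir295 are highest in monosomes.

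At the other end of the length range, of the 10 genes with the largest positive differences (mean of at least 10 CPM, same sign in each gradient), 7 were protein-coding, and 6 of these had frames of more than 5000 nt. Ankrd11, a chromatin-bound cofactor of 7932 nt, was at 85.2, 98.7 and 76.9 CPM in monosomes and 277, 396 and 520.2 CPM in low polysomes, the largest difference of a protein-coding gene under this rule at 2.19 ± 0.17 (adjusted p = 9.6e-08). The groups did not overlap, and high polysomes held 142, 179 and 216 CPM, between the other fractions. Zfyve26, Prrc2c, Ccdc88a, Ccdc88c and Bod1l had differences of 2.17, 2.10, 2.03, 2.03 and 2.02, each without overlap. Zfyve26 acts in endosome and autophagy traffic, Ccdc88a (girdin) binds actin, and Bod1l protects stalled replication forks. Ago3, an Argonaute protein that carries small RNAs, was the exception in length with 2583 nt, at 3.58, 8.83 and 8.29 CPM in monosomes and 21.7, 27 and 45.3 CPM in low polysomes, a difference of 2.13 ± 0.27 (adjusted p = 1.1e-05).

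Long chromatin regulators, a list of remodellers and histone-modifying enzymes, were raised as a group. Of 29 tested, 24 were higher and 0 lower, against 21.9% higher among all genes, and the median ratio was 1.09 ± 0.12 (SD over gradients). Taken against the median of each gene's own length bin, the median was still 0.36 above it. Kmt2d, a histone H3 lysine 4 methyltransferase of 16767 nt, was at 13.5, 19.3 and 11.4 CPM in monosomes and 58.2, 52.2 and 55.3 CPM in low polysomes, and high polysomes held 38.2, 39.2 and 41.8 CPM. Its low polysome values all exceeded its monosome values, with a difference of 1.91 ± 0.18 (adjusted p = 4.8e-07). The remodeller Chd9 stood at 1.87 ± 0.23 (adjusted p = 6.6e-06). Arid1b, a subunit of the BAF remodeller, had a difference of -0.024 ± 0.19 and was not called. Uncalled members also included Setd1a, Smarca5 and Smarca2, named here after their values were seen. The high polysome over monosome ratio of the list was 0.48, against 1.09 for low polysome over monosome.

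Genes of the basement membrane, whose secreted products are mostly large, had 8 of 13 higher and 0 lower, with a median of 0.55 ± 0.10. Hspg2, the heparan sulfate proteoglycan perlecan, was at 109, 120.1 and 108 CPM in monosomes and 324, 194 and 252 CPM in low polysomes, a difference of 1.16 ± 0.16 (adjusted p = 2.6e-05). The laminin chain gene Lama1 stood at 1.15 ± 0.23 (adjusted p = 0.00076), and Lamb2 and Nid2 at -0.18 ± 0.22 and -0.31 ± 0.14, neither called. Against their own length bins the list's median was -0.02.

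Histone mRNAs with short frames were raised in low polysomes, in both of their classes. Replication-dependent histone genes, whose mRNAs mostly end in a stem-loop in place of a poly(A) tail, had 31 of 68 members tested, and 26 of these were higher and 1 lower. Without gradient 3, 14 were called higher. The medians were 1.14, 0.80 and 1.65 in gradients 1 to 3, and the summed level went from 513 ± 128 to 1032 ± 194 CPM. Hist1h4d, a histone H4 gene, was at 67.3, 61.3 and 45.8 CPM in monosomes and 146, 179 and 292 CPM in low polysomes, without overlap, a difference of 1.83 ± 0.21 (adjusted p = 5e-06). Hist1h2ae, a histone H2A gene, stood at 1.61 ± 0.28 (adjusted p = 0.00023). The linker histone Hist1h1e had a smaller difference, 0.52 ± 0.18 (adjusted p = 0.024), and lost its call without gradient 3. Hist2h2be, the only member called lower, fell by 1.52 on the log2 scale and is named after its value was seen. Libraries primed on poly(A) tails count the stem-loop mRNAs only in part, which limits these levels in both fractions.

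Histone variant genes, which are polyadenylated, had 6 of 9 higher and 0 lower, with a median of 0.63 ± 0.047. H2afz, the variant H2A.Z, was at 27.5, 44.8 and 25.3 CPM in monosomes and 109.5, 101 and 87.6 CPM in low polysomes, a difference of 1.61 ± 0.24 (adjusted p = 4.5e-05) without overlap. The linker histone variants H1fx and H1f0 stood at 1.48 ± 0.31 (adjusted p = 0.0009) and 0.19 ± 0.16 (adjusted p = 0.36), of which the second did not pass the test.

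Among mitochondrial and spliceosomal proteins with short frames, more genes were higher than lower. Nuclear-encoded subunits of the respiratory chain and ATP synthase had 39 of 70 higher and 7 lower, with a median of 0.49 ± 0.24, which exceeded the median of their own length bins by 0.23. Ndufb4, an accessory subunit of complex I, was at 44.6, 69.5 and 46 CPM in monosomes and 163, 132 and 131 CPM in low polysomes, a difference of 1.41 ± 0.24 (adjusted p = 0.00018). Uqcrb, a subunit of complex III, stood at 1.29 ± 0.11 (adjusted p = 1.2e-07). The members called lower included Atp5g2, Cox8a, Atp5a1, Uqcrfs1, Ndufa10 and Uqcrc2, named after their values were seen, with differences from -2.28 for Atp5g2 to -0.50 for Uqcrc2. Cox7c, of complex IV, was at 331, 329 and 305 CPM in monosomes and 233, 190.1 and 26.5 CPM in low polysomes. It belongs to the genes in which gradient 3 stood apart, and its difference of -1.57 ± 0.65 (adjusted p = 0.059) was not called.

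Mitochondrial ribosomal proteins had 34 of 74 higher and 10 lower, or 6 lower without gradient 3, with a median of 0.29 ± 0.09. Among members with a mean of at least 10 CPM, Mrpl12 and Mrps12 were highest at 1.08 ± 0.12 (adjusted p = 3.4e-06) and 1.06 ± 0.14 (adjusted p = 1.1e-05). Mrpl23 was the lowest of these, falling from 26.7, 26.5 and 36.5 CPM to 8.09, 5.77 and 6.09 CPM without overlap, a difference of -2.18 ± 0.22 (adjusted p = 1.1e-06), and Mrpl19 followed at -1.06 ± 0.14 (adjusted p = 1.5e-05). The Sm and LSm ring proteins, which form the cores of spliceosomal particles and of the decapping activator, had 8 of 15 higher and 0 lower, with a median of 0.69 ± 0.28. Snrpd3 (SmD3) was at 581, 819 and 692 CPM in monosomes and 1862, 1888 and 2627 CPM in low polysomes, a difference of 1.60 ± 0.19 (adjusted p = 5.9e-06), and Snrpd1 (SmD1) stood at 1.13 ± 0.10 (adjusted p = 3.1e-07). Lsm3 and Snrpg were not called, at -0.075 ± 0.14 and -0.078 ± 0.14. The high polysome over monosome median of the ring proteins was -0.89.

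The mRNAs of cytosolic ribosomal proteins went against the pattern of short frames. They carry a 5′ terminal oligopyrimidine (TOP) tract, through which mTOR signalling controls their translation as a group. Of 77 tested, 66 were lower and 0 higher, against 23.7% lower among all genes. The large subunit had 40 of 46 lower with a median of -1.29 ± 0.18, and the small subunit 26 of 31 with -1.28 ± 0.17. Compared with genes of the same length bin the medians were -1.58 and -1.69. Summed over the list, large subunit genes went from 35564 ± 788 to 17349 ± 554 CPM and small subunit genes from 53997 ± 2943 to 25653 ± 1044 CPM. Many of these genes have processed pseudogenes, which can take or block uniquely aligned reads, so their levels are uncertain.

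Rps13 was at 153, 139.9 and 163 CPM in monosomes and 22.2, 16.9 and 19.8 CPM in low polysomes, without overlap, a difference of -2.95 ± 0.23 (adjusted p = 7.2e-08). The other lowest members were Rps4x at -2.94 ± 0.48 (adjusted p = 0.00012), Rpl10a at -2.80 ± 0.26 (adjusted p = 5.4e-07) and Rpl12 at -2.44 ± 0.14 (adjusted p = 3e-09). At the top of the list stood Rps25 at 0.30 ± 0.12, Rps28 at 0.18 ± 0.24, Rpl39 at -0.095 ± 0.17 and Rpl35 at -0.11 ± 0.12, none of them called. Uncalled members also included Rpl13, Rpl19, Rpl37, Rps14, Rps27a and Rps29, named after their values were seen. The spread within the list, from -2.95 for Rps13 to 0.30 for Rps25, was many times the SE of a single gene.

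Other mRNAs with a TOP tract were lowered too. Of 17 tested, 16 were lower and 0 higher, with a median of -1.70 ± 0.17, and Btf3, a subunit of the nascent polypeptide complex that is named after its value was seen, was not called. Eef2, the factor that moves the ribosome along by a codon, was at 4812, 4564 and 4888 CPM in monosomes and 1213, 996 and 1347 CPM in low polysomes, a difference of -2.01 ± 0.19 (adjusted p = 6.5e-07) without overlap. Eef1a1, which brings charged tRNAs to the ribosome, stood at -1.83 ± 0.17 (adjusted p = 5.5e-07), and Eef1b2, its exchange factor, at -2.34 ± 0.10 (adjusted p = 4.5e-10). Rack1, a scaffold on the small subunit, fell from 8365, 8570.4 and 9980.2 to 2007, 1885 and 2101 CPM, a difference of -2.16 ± 0.13 (adjusted p = 5.6e-09). Eif3e and Eef1d had the smallest called differences among the named members, -0.60 ± 0.12 (adjusted p = 0.00059) and -0.63 ± 0.15 (adjusted p = 0.0026). The summed level of the list went from 31217 ± 1763 to 8205 ± 409 CPM.

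Initiation factors had 18 of 36 lower (50%), against 23.7% among all genes, and a median of -0.38 ± 0.11. The 8 higher (22.2%) were near the 21.9% of all genes. Eif3f, a subunit of the initiation factor eIF3, had the largest decrease and went from 773, 706 and 788 CPM in monosomes to 196, 173 and 201 CPM in low polysomes, a difference of -1.99 ± 0.12 (adjusted p = 4.8e-09). Eif4b, a helper of the eIF4A helicase, stood at -1.82 ± 0.11 (adjusted p = 5.6e-09). Eif5b, which joins the ribosomal subunits, moved the other way, from 28.7, 44.6 and 47 to 67.9, 79 and 94.4 CPM without overlap, a difference of 1.01 ± 0.14 (adjusted p = 3e-05). Eif1ax, which acts in scanning for the start codon, stood at 0.89 ± 0.14 (adjusted p = 8.2e-05). The remaining higher members, named after their values were seen, were Eif1a, Eif2s2, Eif3a and the scaffold proteins Eif4g1, Eif4g2 and Eif4g3.

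Several complexes with mid-length frames were lowered in low polysomes. All 6 MCM genes, the subunits of the replicative helicase, were lower, with a median of -0.83 ± 0.053. Without gradient 3, 4 were called lower. Mcm3 fell from 329.7, 298 and 265 CPM to 134, 135 and 141 CPM without overlap, a difference of -1.12 ± 0.13 (adjusted p = 4e-06), and Mcm6 was the least changed at -0.40 ± 0.10 (adjusted p = 0.0039), a call that was lost without gradient 3. The high polysome over monosome median of the MCM genes was 0.01. The chaperonin CCT, which folds actin and tubulin, had 5 of 8 subunits lower and 0 higher, with a median of -0.52 ± 0.031 in low polysomes and of 0.67 ± 0.12 in high polysomes, both over monosomes. Cct2 went from 666, 542 and 555 CPM to 257, 246 and 186 CPM, a difference of -1.36 ± 0.12 (adjusted p = 2.5e-07), whereas Cct8 and Cct7 were not called at -0.098 ± 0.12 and -0.16 ± 0.15.

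Aminoacyl-tRNA synthetases, which charge tRNAs, had 8 of 20 lower and 1 higher (0 higher without gradient 3), with a median of -0.33 ± 0.21. Qars, for glutamine, fell from 351, 339 and 400.1 to 136, 131 and 121 CPM, a difference of -1.49 ± 0.14 (adjusted p = 6.2e-07), and Nars, for asparagine, stood at -1.08 ± 0.10 (adjusted p = 6.5e-07). Lars, for leucine, was the only one called higher, at 0.30 ± 0.12 (adjusted p = 0.043), and lost its call without gradient 3. Cytoskeleton genes had 8 of 17 lower, 5 without gradient 3, and 3 higher, with a median of -0.38 ± 0.25. Vim, the intermediate filament protein vimentin, and Tuba1b, an alpha-tubulin, stood at -1.69 ± 0.18 (adjusted p = 1.4e-06) and -1.49 ± 0.14 (adjusted p = 5.3e-07), while Arpc3, a subunit of the actin-branching Arp2/3 complex, and Myl12b, a myosin light chain, stood at 1.17 ± 0.21 (adjusted p = 0.00023) and 1.03 ± 0.21 (adjusted p = 0.00073). Actb, beta-actin, was at 1512, 1959 and 1250.3 CPM in monosomes and 1856, 1642 and 2253 CPM in low polysomes, a difference of 0.30 ± 0.19 (adjusted p = 0.22) that was not called, and at 7617, 5232 and 6231 CPM in high polysomes.

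Glycolysis enzymes had 1 of 15 higher (6.67%) and 4 lower (26.7%), with a median of -0.42 ± 0.23. The share lower was near the 23.7% of all genes, and against their own length bins the median was -0.21. Pfkp and Pfkl, platelet and liver forms of phosphofructokinase, went in opposite directions, at 1.25 ± 0.16 (adjusted p = 1e-05) and -0.64 ± 0.24 (adjusted p = 0.04). Eno1, enolase, belongs to the genes in which gradient 3 stood apart and was not called, at 39, 31.6 and 32.1 CPM in monosomes and 18.4, 19 and 3.68 CPM in low polysomes. Gapdh was counted at only 2.79, 2.32 and 1.45 CPM in monosomes and 1.23, 1.13 and 1.01 CPM in low polysomes. It has many processed pseudogenes and uniquely aligned reads alone were counted, so no ratio is read from it. Chaperones of the cytosol and endoplasmic reticulum had 2 of 16 higher (12.5%) and 5 lower (31.25%), against 21.9% and 23.7% of all genes. The pair of higher genes, Pdia3 at 0.90 ± 0.16 (adjusted p = 0.00029) and Pdia6 at 0.77 ± 0.14 (adjusted p = 0.00022), make disulfide isomerases of the endoplasmic reticulum. The cytosolic chaperones Hsp90ab1 and Hspa8 stood at -1.29 ± 0.16 (adjusted p = 9.4e-06) and -0.83 ± 0.15 (adjusted p = 0.00028).

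Proteasome subunits had 10 of 33 higher (30.3%) and 4 lower (12.1%) in low polysomes, against 21.9% and 23.7% of all genes. Their median was 0.14 ± 0.21 over monosomes, and in high polysomes the ratio over monosomes was 1.39 ± 0.15. Psma7, a core subunit of the alpha ring, was highest at 1.13 ± 0.10 (adjusted p = 4e-07), and Psmd12 and Psmc3, of the regulatory particle, were lowest at -0.69 ± 0.13 (adjusted p = 0.00048) and -0.66 ± 0.15 (adjusted p = 0.0022). Cholesterol synthesis genes had 8 of 19 higher and 3 lower, but only 1 was higher without gradient 3. Lss, lanosterol synthase, fell from 31.1, 30.2 and 27.1 to 11.3, 12.3 and 11.8 CPM, a difference of -1.32 ± 0.19 (adjusted p = 4.2e-05).

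Regulators of the ESC state were more often lower than higher, with members called in both directions. Of 16 pluripotency factors, 2 were higher (12.5%) and 6 lower (37.5%), with a median of -0.23 ± 0.084. Nanog was at 287, 307 and 228 CPM in monosomes and 181, 177 and 107 CPM in low polysomes, a difference of -0.85 ± 0.16 (adjusted p = 0.00051) without overlap. Prdm14, which holds the naive state, stood at -1.13 ± 0.22 (adjusted p = 0.00046) and Utf1 at -0.54 ± 0.12 (adjusted p = 0.0013). Sall4, Tbx3 and Nr5a2, named after their values were seen, were the other members called lower. Pou5f1 (OCT4) moved up, from 27.1, 26.7 and 22.2 to 40.1, 48.2 and 57.3 CPM, a difference of 0.96 ± 0.19 (adjusted p = 0.00068), and Tcl1, a coactivator of AKT, stood at 1.03 ± 0.14 (adjusted p = 1.5e-05). The counted level of Pou5f1 was far below that of Nanog and Sox2. Only uniquely aligned reads were counted, and whether reads of Pou5f1 were lost in this way was not tested. Sox2 was at 353, 353 and 315 CPM in monosomes and 360.1, 366 and 334 CPM in low polysomes, and its difference of 0.056 ± 0.096 (adjusted p = 0.67) was not called.

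The DPPA genes, named for their expression in pluripotent cells, had 1 of 4 higher and 1 lower, near the shares among all genes. Dppa3, a maternal factor that protects DNA methylation, rose from 19.5, 16 and 20.5 to 46.8, 43.5 and 38.8 CPM, a difference of 1.20 ± 0.19 (adjusted p = 8e-05). Dppa4, a DNA-binding partner of Dppa2, fell from 211, 212 and 205 to 98.5, 85.2 and 116 CPM, a difference of -1.08 ± 0.20 (adjusted p = 0.00044), and Dppa2 stood at -0.0016 ± 0.18. Dppa5a was at 808, 688 and 807 CPM in monosomes and 1683, 1479.6 and 389.8 CPM in low polysomes, where gradient 3 stood apart, and its difference of 0.37 ± 0.44 (adjusted p = 0.52) was not called. Ddx6, the helicase removed in the KO cells, was at 143, 156 and 160.4 CPM in WT monosomes and 160.1, 194 and 212 CPM in WT low polysomes, a difference of 0.30 ± 0.16 (adjusted p = 0.15) that did not pass the test.

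Genes known for control by upstream reading frames (uORFs) included Atf4, which was highest in low polysomes. Of 11 tested, 5 were higher and 2 lower (1 without gradient 3) in low polysomes, with a median of 0.23 ± 0.21, and the high polysome over monosome median was -0.59. Atf4, the transcription factor of the integrated stress response, was at 772, 867 and 878 CPM in monosomes, 1574, 1572 and 1635 CPM in low polysomes and 466, 356 and 372 CPM in high polysomes. Each low polysome value was above every value of the other fractions, and the difference from monosomes was 0.93 ± 0.15 (adjusted p = 0.00013). Atf5, a related factor with a like arrangement of uORFs, stood at 1.04 ± 0.26 (adjusted p = 0.0036). Amd1, an enzyme of polyamine synthesis, fell from 15.9, 19.3 and 13.1 to 8.82, 7.75 and 7.48 CPM, a difference of -1.02 ± 0.20 (adjusted p = 0.0007), and Cebpg stood at -0.48 ± 0.16 (adjusted p = 0.023), a call lost without gradient 3.

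Selenoprotein genes, in which a UGA codon is read as selenocysteine, had 5 of 17 higher (29.4%) and 4 lower (23.5%). These shares were near the 21.9% and 23.7% of all genes. Sephs2, which makes the selenium donor, went from 53, 67.6 and 56.8 to 215, 172 and 123 CPM, a difference of 1.47 ± 0.15 (adjusted p = 1.5e-06), and Msrb1, a methionine sulfoxide reductase, stood at 1.22 ± 0.13 (adjusted p = 1.7e-06). Selenow and Gpx4, a glutathione peroxidase that guards lipids, stood at -1.10 ± 0.22 (adjusted p = 0.00058) and -0.90 ± 0.21 (adjusted p = 0.0019). Numbered zinc finger genes, mostly C2H2 DNA-binding proteins, leaned low, with 108 of 259 lower and 19 higher (11 higher without gradient 3) and a median of -0.39 ± 0.011, which was -0.34 relative to their own length bins. Zfp408 fell from 37.8, 36 and 34 to 5.39, 8.59 and 3.68 CPM, a difference of -2.62 ± 0.21 (adjusted p = 1e-07), and Zfp773 stood at -2.60 ± 0.19 (adjusted p = 3.7e-08). Among members with a mean of at least 10 CPM, Zfp292 and Zfp871 were highest, at 1.39 ± 0.16 (adjusted p = 4.5e-06) and 1.24 ± 0.16 (adjusted p = 1.5e-05).

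Membrane transporters of the SLC families were close to the background on the higher side and below it on the lower, with 43 of 214 higher and 30 lower (18 lower without gradient 3) and a median of 0.11 ± 0.051. Slc25a36 and Slc25a28, carriers of the mitochondrial inner membrane, stood at 1.30 ± 0.12 (adjusted p = 4.6e-07) and -2.22 ± 0.14 (adjusted p = 5.4e-09). RAB GTPases, the switches of vesicle traffic, had 15 of 46 higher and 8 lower (5 lower without gradient 3), with a median of 0.19 ± 0.12. Against their own length bins the median was -0.092. Rab11b, of recycling endosomes, was at 12.3, 22.1 and 11.2 CPM in monosomes and 37.2, 32.8 and 33.7 CPM in low polysomes, a difference of 1.19 ± 0.21 (adjusted p = 0.00028), and Rab12 stood at 1.17 ± 0.14 (adjusted p = 4.1e-06). Slc25a5, Slc16a3 and Rab5b had differences of -1.66 ± 0.53, 1.05 ± 0.27 and -0.61 ± 0.24, called with all gradients and not without gradient 3, and Rab24 stood at -0.59 ± 0.13 (adjusted p = 0.0016).

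Among non-coding transcripts, lncRNAs were more often lower than higher in low polysomes. Of 447 annotated lncRNAs, 190 were lower (42.5%) and 32 higher (7.16%), with medians of -0.50, -0.47 and -0.69 in the 3 gradients. Relative to protein-coding genes the lncRNA median stood at -0.56, -0.49 and -0.70, a mean of -0.59 ± 0.11 (SD, n = 3). With no filter on low counts this value was -0.0077, and with a filter of 10 CPM it was -0.78. In high polysomes the lncRNA ratio over monosomes was lower still, -1.96 ± 0.097. Among lncRNA types, lincRNAs stood at -0.55 ± 0.12 (84 of 194 lower), antisense transcripts at -0.45 ± 0.067 (39 of 107) and processed transcripts, which include many small nucleolar RNA hosts, at -0.87 ± 0.16 (50 of 92). Processed pseudogenes had 154 of 247 lower and 13 higher, 6 without gradient 3, with a median of -0.99 ± 0.16. Their reads can stem from the parent genes, many of which encode ribosomal proteins, and were not told apart here.

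**Figure D5:**
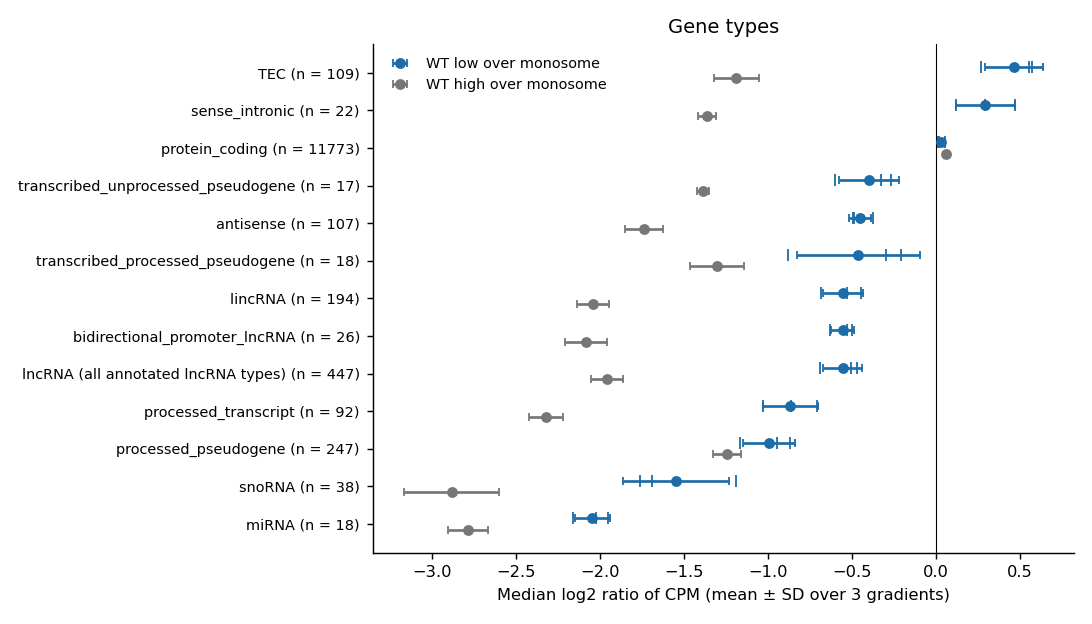
Median log2 ratio of CPM over monosome (horizontal axis, linear log2) for annotated gene types (vertical axis, with the number tested). Points are means over 3 WT gradients, error bars SDs, and ticks single gradients of the low polysome ratio. MicroRNA and small nucleolar RNA loci are lowest in low polysomes, protein-coding genes lie near 0, and TEC and sense intronic loci lie above 0 in low polysomes and below 0 in high polysomes.

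Small nucleolar RNA hosts are spliced, mostly non-coding transcripts that carry small nucleolar RNAs in their introns, and several have a TOP tract. In the list tested, 1 member is annotated as protein-coding. They were among the lowest lists. Of 16 tested, 15 were lower and 0 higher. Their medians in the gradients were -1.94, -1.92 and -1.93, and their high polysome over monosome ratio was -3.97. The SD over gradients was 0.0069 as scaled here, 0.054 with library size alone and 0.11 at equal depth. Gas5 was at 1847, 1720.3 and 1729 CPM in monosomes, 478, 491 and 456 CPM in low polysomes and 115, 113 and 125 CPM in high polysomes, a stepwise fall with a low polysome over monosome difference of -1.89 ± 0.13 (adjusted p = 1.3e-08). Snhg8 stood at -2.86 ± 0.25 (adjusted p = 2.5e-07), and Snhg6, in which gradient 3 stood apart, at -3.15 ± 0.47 (adjusted p = 5.3e-05), or -2.39 without gradient 3. Snhg10, the uncalled member, had a difference of -0.61 ± 0.35 and is named after its value was seen.

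Non-coding RNAs known from the nucleus were also lower, with 6 of 8 called lower, 1 higher and a median of -1.01 ± 0.16. Malat1, of nuclear speckles, was at 2864, 3185 and 3505 CPM in monosomes and 630.2, 935 and 1074 CPM in low polysomes, a difference of -1.89 ± 0.16 (adjusted p = 2e-07) without overlap. Meg3, an imprinted transcript, stood at -1.92 ± 0.16 (adjusted p = 1.2e-07). Kcnq1ot1, an imprinted transcript of the Kcnq1 locus, moved the other way, from 15.9, 14.9 and 16.2 to 31.1, 33.8 and 45.5 CPM, a difference of 1.27 ± 0.18 (adjusted p = 3.5e-05), and Rian stood at 0.38 ± 0.18 (adjusted p = 0.11), not called. Tsix, the antisense transcript of Xist, was among the 10 largest decreases, at 70.1, 60.6 and 70.2 CPM in monosomes and 5.39, 6.48 and 5.83 CPM in low polysomes, a difference of -3.50 ± 0.22 (adjusted p = 5.6e-09). How nuclear RNA came to be in the gradients was not tested.

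The largest decreases were at small RNA loci. Of 38 small nucleolar RNA loci 29 were lower and 1 higher, with a median of -1.55 ± 0.31, and 24 of them overlap a protein-coding gene on the same strand. Snord65 was at 69.3, 54.1 and 70.9 CPM in monosomes and 4.53, 5.77 and 1.01 CPM in low polysomes, a difference of -4.20 ± 0.39 (adjusted p = 4.7e-07), and Snord72 stood at -4.24 ± 0.51 (adjusted p = 6.2e-06). Of 18 microRNA loci 15 were lower and 0 higher, with a median of -2.04 ± 0.11, and 6 overlap a protein-coding gene on the same strand. Libraries primed on poly(A) do not capture mature microRNAs, so counts at these loci do not measure the mature forms. They include 4 loci of the miR-290 cluster, the most abundant microRNAs of mouse ESCs, which sit together on chromosome 7. The mature 3p sequences are printed because they show how far the cluster shares a seed, the part that pairs with targets (RefSeq, GRCm38.p6, plus strand, 4 of 4 loci matched by name, bases 2 to 8 in capitals).
mmu-miR-290a-3p: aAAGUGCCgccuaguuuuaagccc
mmu-miR-293-3p: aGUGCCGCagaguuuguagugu
mmu-miR-294-3p: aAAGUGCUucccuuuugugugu
mmu-miR-295-3p: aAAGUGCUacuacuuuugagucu

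The 3p arms of miR-294 (chr7:3220691-3220712) and miR-295 (chr7:3220815-3220837) share the seed AAGUGCU, while miR-290a (chr7:3218674-3218697) has AAGUGCC and miR-293 (chr7:3220390-3220411) has GUGCCGC. Mir294 was at 16.7, 22.3 and 20.5 CPM in monosomes and 1.59, 1.41 and 0.761 CPM in low polysomes, a difference of -4.02 ± 0.39 (adjusted p = 7.2e-07). Mir295 was at 30.3, 25.3 and 37.5 CPM in monosomes and 3.92, 3.24 and 3.04 CPM in low polysomes, a difference of -3.12 ± 0.32 (adjusted p = 1.3e-06). Mir293 and Mir290a, with Mir295 named after their values were seen, stood at -2.22 ± 0.23 (adjusted p = 1.1e-06) and -1.85 ± 0.38 (adjusted p = 0.00078). None of the 4 loci had overlapping groups, a trait that was not counted over all genes.

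Pabpn1, which encodes the nuclear poly(A)-binding protein, had the largest decrease of a protein-coding gene under the naming rule. It was at 142, 128 and 134 CPM in monosomes, 9.92, 13.1 and 10.4 CPM in low polysomes and 5.9, 8.2 and 4.05 CPM in high polysomes, and the low polysome difference was -3.59 ± 0.18 (adjusted p = 9.7e-10). The predicted genes Gm37584, Gm24016, Gm15894, Gm13340 and Gm4779 complete the 10 largest decreases, with differences of -3.34, -3.29, -3.27, -3.23 and -3.18. On the other side, Gm37969, Gm15186 and Gm38248 had the largest increases of any genes under the rule, at 2.88 ± 0.33 (adjusted p = 4.2e-06), 2.67 ± 0.30 (adjusted p = 3.5e-06) and 2.61 ± 0.43 (adjusted p = 0.00014), and none of these 3 is annotated as protein-coding.

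Gm37969 and Gm38248 are TEC loci, a Gencode type for transcripts that still await experimental testing, and TEC and sense intronic loci were the non-coding types with a median above 0 in low polysomes. Of 109, 37 were higher (25 without gradient 3) and 18 lower, with a median of 0.47 ± 0.17 in low polysomes and of -1.19 ± 0.13 in high polysomes, both over monosomes. Of these loci 81 overlap a protein-coding gene on the same strand, and they had 33 higher and 10 lower and a median fitted difference of 0.80. The 79 overlapped genes that were tested had a median of 0.21. The 28 TEC loci without such an overlap had 4 higher and 8 lower and a median of -0.05. All 22 sense intronic lncRNAs overlap a protein-coding gene, and 8 were higher and 5 lower, with a median ratio of 0.30 ± 0.18. Over all lncRNA types, the 53 that overlap a protein-coding gene had 12 higher and 16 lower, against 20 higher and 174 lower for the 394 lncRNAs that do not. Reads from unspliced or internally primed transcripts of the overlapped gene cannot be told apart from reads of these loci. Levels in monosomes were low, with sums of 734 CPM over the 109 TEC loci and 144 CPM over the 22 sense intronic loci. A locus could pass the filter of 3 CPM in 3 libraries through the low polysome libraries alone, which favours ratios above 0. How much this adds to the medians was not tested.

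All 7 mitochondrially encoded mRNAs that were tested, of 13, were lower, with medians of -2.65, -2.37 and -1.97 in the 3 gradients. They are translated inside mitochondria on ribosomes that sediment differently from cytosolic ones. mt-Nd1, a complex I subunit, was at 3123, 3825 and 2364 CPM in monosomes and 296, 430.4 and 383 CPM in low polysomes, a difference of -3.06 ± 0.18 (adjusted p = 4.8e-09) without overlap. mt-Nd5 had the smallest difference, -1.24 ± 0.19 (adjusted p = 5.4e-05). Their summed level went from 15396 ± 3253 CPM in monosomes to 2817 ± 526 CPM in low polysomes, and their high polysome over monosome ratio was -4.11.

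The same fractions were compared in Ddx6 KO cells, whose libraries share none with the WT comparison. KO gradients 2 and 3 both come from clone 2, so the KO gradients are not all independent clones. The tests between genotypes, of groups and of single genes, treat each gradient as a replicate. Ddx6 itself was at 57.5, 26.7 and 17.6 CPM in KO monosomes and at 82.7, 20.7 and 17.7 CPM in KO low polysomes, below every WT value but not at 0, and highest in gradient 1, from clone 1. A 3′ tag counts the transcript and not the protein. The ribosomal protein median less the protein-coding median was -0.72, -0.78 and -0.90 in KO gradients against -1.19, -1.26 and -1.49 in WT gradients, a difference of 0.51 without overlap (exact two-sided permutation test over 3 against 3 gradients, p = 0.1, the smallest this design allows). The lncRNA median less the protein-coding median was -0.89, -0.83 and -0.79 in KO against the WT values above, a difference of -0.25 (exact permutation p = 0.1, again the smallest possible). With no filter on low counts that difference was 0.0077. Spearman's rho of coding length with the ratio was 0.08, 0.13 and 0.18 in KO against -0.15, -0.11 and 0.03 in WT, a difference of 0.20 (exact permutation p = 0.1). Short frames of 300 to 500 nt had a mean ratio of -0.10 ± 0.095 in KO, below 0 in each gradient, and 0.38 ± 0.14 in WT. Frames above 5000 nt stood at 0.82 ± 0.058 in KO and 0.87 ± 0.16 in WT. KO monosome libraries held 7537656 to 7811071 counts, more than the WT monosome libraries.

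Among single genes, 774 of 12705 differed between genotypes in their low polysome over monosome ratio at an adjusted p under 0.05 (interaction term of the same limma fit). KO gradients 2 and 3, from the same clone, count as separate replicates in that fit. The 774 genes included 29 of the 154 genes of the naming rule and its 9 additions. Most of these were named as the highest or lowest of their list by the WT ratio, so the choice favours KO ratios nearer to 0. Tuba1b had a log2 ratio of -1.49 in WT and -0.0032 in KO, and the elongation factor gene Eef1b2 had -2.34 in WT and -0.97 in KO. Ndufb4 had 1.41 in WT and 0.11 in KO, H2afz 1.61 and 0.35, and Dbi 1.39 and 0.16. Atf4 went from 0.93 in WT to 0.019 in KO. By list, the KO medians were 0.014 for respiratory chain subunits, 0.05 for the Sm and LSm ring proteins and 0.0084 for CCT subunits, against 0.49, 0.69 and -0.52 in WT. Long chromatin regulators stood at 1.01 in KO and 1.09 in WT, and small nucleolar RNA hosts at -2.02 and -1.93, and these list differences were not tested.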

How the data were processed

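Polyadenylated RNA of each fraction was sequenced from its 3′ end with QuantSeq 3′ FWD. The authors trimmed reads with cutadapt 1.14, aligned them to mm10 with STAR 2.5.3a and counted reads per gene with featureCounts 1.5.3, per the labels and the study's methods. The counter's strand option was set, though its value is not given in the sources used here. The deposited table holds these raw counts of uniquely aligned reads per gene, not normalised, for 18 libraries. No fold change or p-value of the authors was used.

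Genes with at least 3 CPM in at least 3 libraries were kept (12705 of 51467, holding 99.6% of counts), and 92 spike-in sequences were left out. Gene types and coding lengths came from Gencode M21, a later release than the authors used, which matched 51274 of the genes. TMM factors were computed with edgeR 4.0.16 in R 4.3.3. A voom model with a term for each genotype and fraction and a block for the gradient was fitted to all 18 libraries with limma 3.58.1, and p-values were adjusted by Benjamini and Hochberg over all 12705 genes. The fit was also run on simulated counts with few changed genes and no difference between gradients. That setting differs from these data, so the run does not measure the error rate of the calls here. Medians of gene groups used log2 ratios within each gradient with a pseudocount of 0.5 CPM, which understates the change of low genes, and their errors are SDs over 3 gradients. High polysome ratios share the monosome libraries and are given as values only.

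Both fractions of a gradient come from the same tube, which is why the gradient was a block. Deviations from the group means correlated between low polysome and monosome of the same WT gradient by only 0.16, -0.05 and 0.09.

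The genes and lists were chosen with earlier results of these data known. Named are the 10 largest increases and decreases among called genes with a mean of at least 10 CPM and one sign in all gradients, the 2 highest and 2 lowest members of each list with that mean, and fixed genes (Ddx6, Rpl41, Eef1a1, Eef2, Atf4, Gas5, Malat1, Pou5f1, Nanog, Sox2, Dppa5a, Actb, Gapdh). That named 145 genes, and 9 more were added after their values were seen. Alternatives were run for these 154, and further list members are named in the text only, marked as named after their values were seen. Some genes named by the rule are not reported here. Alternatives were other size factors, filters, pseudocounts, depth, isoform, tools, models and leaving out each gradient. Counting error alone limits low genes most in the monosome libraries.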

Additional observations from a re-analysis of the deposited data

Results flagged for a closer look

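For 29 of 154 named genes, the log2 ratio of low polysome over monosome differed between KO and WT cells at an adjusted p under 0.05 in the interaction term of the limma fit, in which each genotype has 3 gradients. KO gradients 2 and 3 come from the same clone and count as separate replicates there. Values below are KO less WT on the log2 scale. Most of these genes were named as the highest or lowest of their list by the WT ratio, which is one side of this difference, so the choice favours shifts toward 0. Among genes that were lower in WT low polysomes, the KO ratio was higher by 1.49 for Tuba1b, 1.37 for Eef1b2, 1.34 for Eif3f, 1.29 for Qars, 0.98 for Eef1d, 0.96 for Vim, 0.95 for Hsp90ab1, 0.87 for Utf1, 0.86 for Cct2 and 0.86 for Mrpl19. Smaller gaps of this sign were 0.81 for Cct7, 0.78 for Rack1, 0.73 for Mcm6, 0.71 for Nars, 0.67 for Eif4b, 0.64 for Mcm5 and 0.61 for Tcp1, of which Cct7 was not called in WT alone. Among genes that were higher in WT low polysomes, the differences were -1.30 for Ndufb4, -1.26 for H2afz, -1.24 for Dbi, -1.07 for Dppa3, -0.99 for Uqcrb, -0.91 for Mrps12 and -0.91 for Atf4, and -0.84 for Msrb1, -0.81 for Sephs2, -0.69 for Timm10, -0.69 for Psma7 and -0.62 for H2afv, of which H2afv was not called in WT alone. Dbi and Timm10 were chosen after their values were seen.

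In 3 of the length bins and gene lists with at least 4 genes tested, every WT gradient lay on one side of 0 and every KO gradient on the other, and the difference was not tested. The median ratio of the pluripotency factors was 0.26 in KO (mean of 3 gradients) and -0.23 in WT. For coding lengths of 300 to 500 nt it was -0.10 in KO and 0.38 in WT, and for 1000 to 1500 nt it was 0.027 in KO and -0.09 in WT.

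Reads from spike-in sequences, which no comparison used, were few. They came to 169 counts in the low polysome library of gradient 3, the library that stood apart, against 37 to 71 counts in the other 5 WT monosome and low polysome libraries. The source of these counts was not tested.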

How the results depend on the processing

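Requiring a log2 difference over 1 left 767 higher and 1385 lower genes, and thinning every library to the depth of the shallowest left 1936 higher and 1801 lower. Leaving out a gradient gave 1999 to 2165 higher and 2314 to 2389 lower genes, fewer samples in each fit. Without the replicate block that pairs the fractions of a gradient, 2593 were higher and 2897 lower, and within the WT libraries alone 2733 and 2925. edgeR called 2942 and 3080 and DESeq2 2910 and 3037. None of the 154 genes of the naming rule and its 9 additions went from a call in one direction to a call in the other. Uncalled genes near 0 did change sign without gradient 3, among them Lsm3 (-0.075 to 0.12), Snrpg (-0.078 to 0.047), Rpl39 (-0.095 to 0.050) and Arid1b (-0.024 to 0.0095). Of the 154 genes, 9 lost their call without gradient 3, namely Lars, Nsdhl, Mcm6, Cebpg, Hist1h1e, Slc25a5, Slc16a3, Rab5b and Usmg5.

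The lncRNA less protein-coding median was -0.0077 with no filter on low counts, -0.78 with a filter of 10 CPM and -0.47 with a pseudocount of 2 CPM, and the KO less WT value was 0.0077 with no filter. The median for 1500 to 2000 nt was -0.00021, -0.21 and -0.17 in the same order and -0.20 with the longest isoform, and that above 5000 nt was 0.68 with no filter. The setting with no filter takes in 27427 genes, and the added 0.5 CPM draws ratios of genes with few counts toward 0. How much of these moves comes from such genes was not tested. The chaperone median turned to 0.0035 and that of the ESC markers to 0.0605 with no filter, and the ESC markers to 0.041 at equal depth.

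With single gradients left out, the ESC marker median ran from -0.068 to 0.042 and the selenoprotein median from -0.095 to 0.31. The other ranges were -0.13 to -0.038 for the rho of coding length, -0.63 to -0.53 for lncRNAs, -1.38 to -1.23 for ribosomal proteins, 0.13 to 0.31 up to 300 nt, 0.32 to 0.46 for 300 to 500 nt, -0.197 to -0.193 for 1500 to 2000 nt and 0.78 to 0.92 above 5000 nt, and 13 to 16 of 30 lists lay more than 0.5 from the median of all genes, against 13 with all gradients. The medians, the KO comparisons and the alternatives for them were added after the data were seen where the planned list did not hold them. The monosome libraries, with fewer counts, limit genes near the filter.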
